A study of Triticum aestivum and Aegilops tauschii and Triticum carthlicum with 33 samples.

Results

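Among 61179 wheat probe sets measured in leaves, 100 were chosen because their group mean was much higher in an extracted tetraploid wheat than in a bread wheat, although Aegilops tauschii, the donor of the D genome, was itself at or above the bread wheat. A probe set qualified with a mean of at least 6 on the log2 scale in Extracted-tetra and with both Aegilops tauschii lines, TQ18 and 30A, at or above the bread wheat TAA10. In all, 7606 probe sets met these conditions, 3434 of them with Extracted-tetra above TAA10. The 100 with the highest Extracted-tetra minus TAA10 difference are called the members. They were chosen by the values on the arrays of Extracted-tetra, TAA10, TQ18 and 30A, so values from those arrays are given as a description, with no test.

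Bread wheat is a hexaploid that carries the B, A and D genomes, and it arose when a tetraploid wheat with the B and A genomes hybridised with Aegilops tauschii. Most genes are therefore present as homoeologues, related copies on the different genomes, and their transcripts can share the short probes of an array. When genomes are merged, the level of a transcript may stay at the sum of what the parents contributed or depart from it, and an RNA mix of the parents gives the level without any departure.

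Extracted-tetra has the BBAA genomes of a bread wheat and was obtained by crossing to a durum line followed by repeated backcrossing to the hexaploid. The labels do not name that hexaploid, and TAA10 is the only bread wheat of the series. XX329 is a resynthesized hexaploid with Extracted-tetra as the maternal parent, and XX329 mix is RNA of 2 parts Extracted-tetra to 1 part TQ18. TTR13 (subspecies durum), TD265 (subspecies dicoccoides) and Blackbird (subspecies carthlicum) are natural tetraploids. Allo-960S7 is a newly synthesized hexaploid after 7 selfed generations, and Allo-960 mix is 2 parts Blackbird RNA to 1 part 30A RNA. Each of these 11 groups had 3 arrays of leaf RNA, 33 in all, from plants kept under a 16 h photoperiod, with 24 °C in the light and 20 °C in the dark. The labels call the arrays of a group biological replicates but give neither the plants behind each RNA nor whether the mixes used the extracts of the parents' own arrays, and each line stands for 1 genotype.

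The arrays were alike in their overall level, with medians over all probe sets of 4.37 to 4.48, and arrays of a group correlated at 0.979 to 0.996. The leaf genes rbcl, the large subunit of Rubisco, and OEE1, of the oxygen-evolving complex, had group means of 14.3 to 15.1. Of 7 seed storage protein and grain inhibitor genes, 4 were under the array medians in every group, and the 7 ranged from 2.51 to 7.20. Hybridisation control probe sets read 8.64 to 9.11 on the 12 arrays of Allo-960S7, its mix, Blackbird and 30A and 9.35 to 10.002 on the other 21, so that family and this scale difference cannot be told apart. The actin 3′ minus 5′ difference, a measure of RNA integrity, was 0.337 ± 0.245 in Extracted-tetra (SD, n = 3), -0.464 ± 0.186 in TAA10, -0.406 ± 0.182 in XX329 and -0.139 ± 0.362 in XX329 mix. It was -0.25 in TTR13, -0.32 in TD265 and -0.68 in TQ18. The lowest means were in the Allo-960 family, with -0.93 in Blackbird, -1.04 in Allo-960 mix, -1.24 in Allo-960S7 and -1.50 in 30A.

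The members' Extracted-tetra minus TAA10 differences ran from 1.02 to 4.97 with a median of 1.42, which is 2.03-fold to 31.3-fold with a median of 2.67-fold. In 27 members the difference was at least 4-fold. Every Extracted-tetra array was above every TAA10 array in 82 members, against 20.3% of all probe sets, a count that follows from the choice of members. At the end of the list, Ta.29930.1.S1_at, Ta.5280.3.S1_at and TaAffx.27824.1.S1_at had differences of 1.03, 1.03 and 1.02. Just beyond it, Ta.11135.1.S1_at, Ta.19862.1.S1_s_at and Ta.23348.1.A1_x_at had 1.02, 1.01 and 1.01.

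The description of the members as higher in the tetraploid despite D genome expression held for some of them only. Both Aegilops tauschii lines reached a mean of 6 in 68 members, and the lower of them was at least 1 log2 unit above TAA10 in 42. In 38 members the lower line exceeded TAA10 by less than 0.5. In 7 members the lower line was under the highest array median, and TAA10 was under it in 13. TAA10, TQ18 and 30A all had means under 6 in 23 members, among them 8 of the 10 with the highest difference. The members just inside the end of the list show the other extreme: Ta.5280.3.S1_at read 10.74 ± 0.05 in TQ18 and 10.60 ± 0.07 in 30A against 7.72 ± 0.28 in Extracted-tetra and 6.69 ± 0.14 in TAA10 (SD, n = 3 each).

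**Figure D1:**
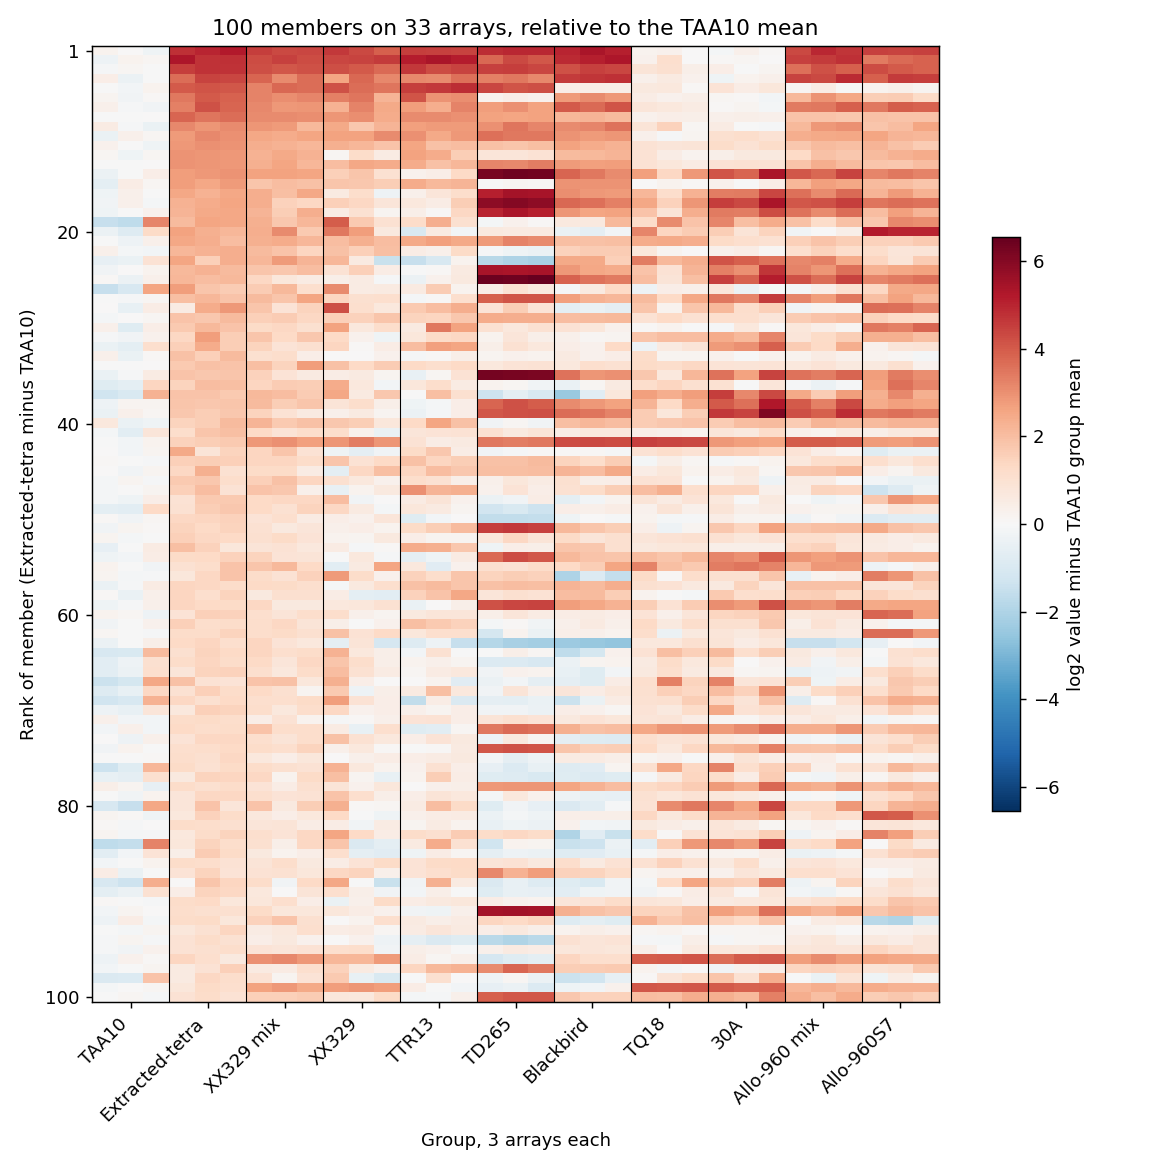
Each row is a member in the order of its Extracted-tetra minus TAA10 difference, each column is an array, and colour is the log2 value minus the TAA10 group mean. The Extracted-tetra and XX329 mix columns are higher than TAA10 nearly throughout, while XX329, the natural tetraploids and the diploids TQ18 and 30A vary from member to member, and TD265 holds both the darkest red and many blue cells.

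Ta.21633.1.S1_a_at, the first of the list, was high in every group with a tetraploid contribution except TAA10. It read 9.66, 9.85 and 10.07 in Extracted-tetra and 5.14, 4.93 and 4.60 in TAA10. XX329 had 9.52, 9.22 and 8.80, and XX329 mix had 9.40, 9.22 and 9.24. The arrays of XX329 and its mix overlapped, with a difference of -0.10 (SE 0.16, limma adjusted p = 0.881). The natural tetraploids stood at 9.36 ± 0.04 in TTR13, 9.79 ± 0.04 in TD265 and 10.02 ± 0.21 in Blackbird (SD, n = 3 each), and TQ18 and 30A at 5.07 ± 0.15 and 4.96 ± 0.23. TAA10 thus stood with the diploids on this probe set, and the resynthesized hexaploid with the tetraploids.

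Ta.4646.1.S1_at repeated this division at a lower level. The arrays read 7.69, 7.90 and 7.87 in Extracted-tetra, 3.07, 3.25 and 3.11 in TAA10, and 7.34, 7.17 and 6.86 in XX329. The 3 natural tetraploids had means of 7.47 to 7.60 and the diploids 3.90 and 3.34. TaAffx.23666.1.S1_at read 9.93, 9.35 and 9.37 in Extracted-tetra, 4.27, 4.84 and 4.74 in TAA10, and 8.97, 9.04 and 9.18 in XX329. Every XX329 array was above every TAA10 array in both members, and the XX329 and mix arrays overlapped.

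In 13 members, Extracted-tetra, XX329, XX329 mix and each natural tetraploid were at least 1 log2 unit above TAA10, a grouping chosen after the values were seen. In 9 of these 13, TAA10, TQ18 and 30A were all under 6. These 9 were Ta.21633.1.S1_a_at, TaAffx.23666.1.S1_at, Ta.4646.1.S1_at, Ta.9481.2.S1_at, Ta.9481.2.S1_x_at, Ta.6927.1.A1_at, Ta.19031.1.S1_at, TaAffx.11852.1.A1_at and Ta.3483.1.S1_at. Their TAA10 means had a median of 3.90 (3.14 to 4.89), against 7.55 in Extracted-tetra (6.25 to 9.86) and 6.55 in XX329 (6.01 to 9.18). Allo-960S7, which has no Extracted-tetra parent, had a median of 7.20 (5.64 to 9.34) over the same 9. The 2 probe sets named Ta.9481 share a target, so the 9 are not independent.

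A few of the highest-ranked members departed from that division in a single natural tetraploid. Ta.10649.1.S1_at read 7.71, 7.81 and 7.77 in Extracted-tetra, 3.64, 3.49 and 3.90 in TAA10, and 7.87, 7.31 and 7.19 in XX329. TTR13 and TD265 were also high, at 8.34 ± 0.15 and 7.91 ± 0.14, whereas Blackbird was at 4.10 ± 0.04, and TTR13 exceeded Blackbird by 4.23 (SE 0.17, adjusted p = 4.35e-18). Both Allo-960S7, at 3.92 ± 0.08, and Allo-960 mix, at 3.88 ± 0.26, were as low as Blackbird, the tetraploid in that mix. Ta.7249.1.S1_at was low in TD265 instead, at 3.18 ± 0.09, against 6.24 ± 0.64 in TTR13 and 5.78 ± 0.14 in Blackbird (TTR13 minus TD265 3.05, SE 0.25, adjusted p = 8.08e-11).

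**Figure D2:**
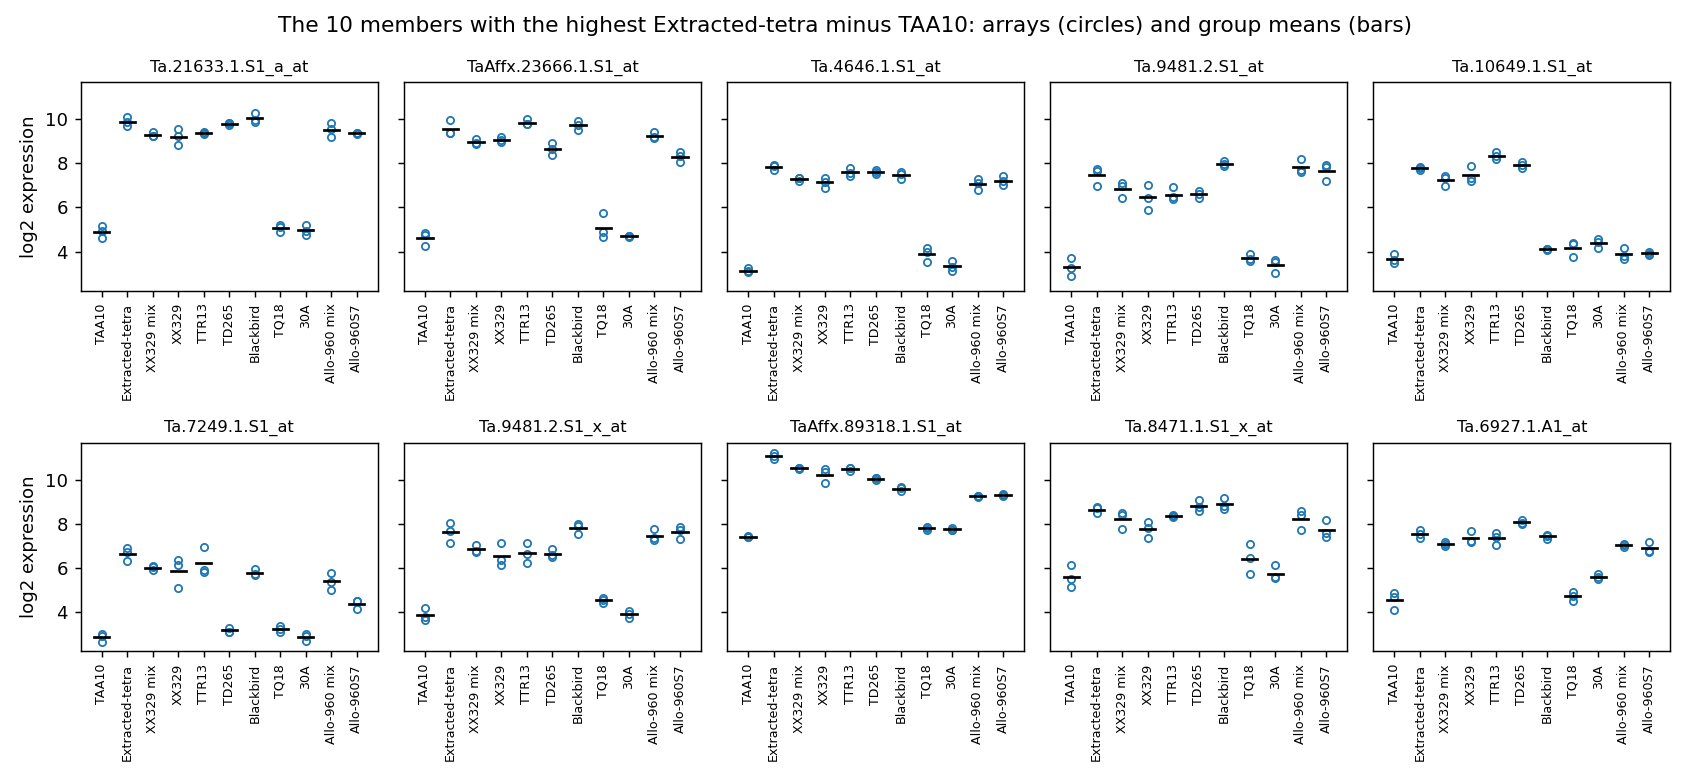
Circles are the 3 arrays of each group and bars are group means, on the log2 scale, for the 10 members with the highest Extracted-tetra minus TAA10 difference. In each panel the XX329 and XX329 mix arrays lie near Extracted-tetra and above TAA10, with Blackbird low for Ta.10649.1.S1_at and TD265 low for Ta.7249.1.S1_at.

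Return to the TAA10 level in the resynthesized hexaploid was read in 2 ways. The first is a position, which is 0 at the TAA10 mean and 1 at the Extracted-tetra mean. It shares the arrays that chose the members, so it has no test. XX329 had a median position of 0.55, and 54 members were at 0.50 or above. XX329 mix had a median of 0.84 with 94 members at 0.50 or above. A mix calculated from the parents' arrays had 0.90 with 100, a count fixed by the rule that chose the members. The 10 highest-ranked members were all at 0.50 or above in XX329. By blocks of 20 ranks the count was 17, 11, 6, 12 and 8. XX329 was below TAA10 in 5 members, above Extracted-tetra in 9 and within 0.5 of TAA10 in 33. The next 100 probe sets in rank gave a median position of 0.50 in XX329 and 0.73 in XX329 mix.

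**Figure D3:**
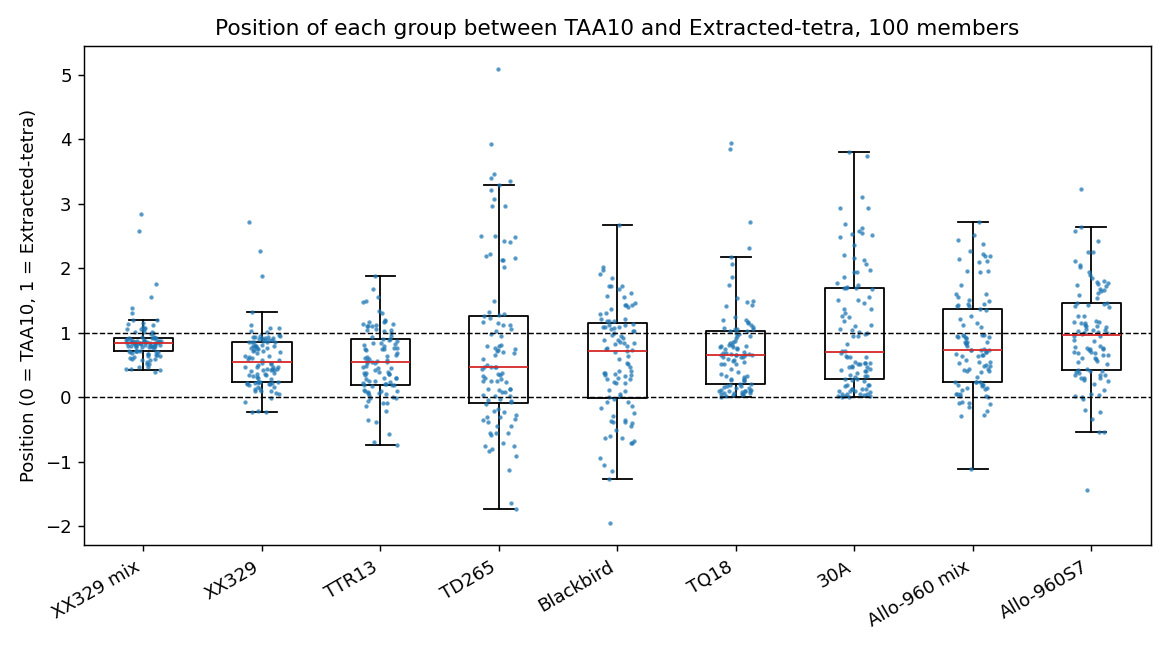
Each point is a member's group mean on a scale where TAA10 is 0 and Extracted-tetra is 1 (dashed lines). Boxes span the quartiles, red lines are medians, and whiskers reach the farthest member within the usual box-plot fence. The XX329 mix is narrow around a median of 0.84, XX329 has a median of 0.55, and TD265 and 30A spread widest.

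The second way is the test of XX329 against XX329 mix, whose arrays did not choose the members. The mix is mostly Extracted-tetra RNA, however, and the labels do not say whether it came from the extracts that chose them. If so, high Extracted-tetra values that chose a member could also raise the mix, which was not tested. A call is an adjusted p under 0.05 in limma's test, adjusted over all probe sets. Of the 100 members, 12 were called lower in XX329 and 0 were called higher, against 0.943% lower and 0.94% higher over all probe sets. At an unadjusted p under 0.05 the counts were 36 lower and 0 higher, without a share over all probe sets to set beside them. Among all probe sets that met the level and D line conditions, 1.21% were called lower and 1.84% higher. The members' median difference was -0.39, against 0.01 over all probe sets and -0.01 over the eligible ones, and 79 of the 100 means were below the mix. Means above the mix made up 21% of the members, 53% of all probe sets, 47.9% of the eligible ones and 27% of the next 100 in rank. Among the next 100 in rank, 2 were called lower and 0 higher. All 12 called members had a position below 0.50 in XX329, and in 10 of the 12 every XX329 array was below every mix array. Both counts follow in large part from the calls themselves and add no separate evidence.

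The count of 12 depended on single arrays and on the fit. It was 4 without mix array 2, 7 without mix array 1, 5 when the list was chosen again without TAA10 array 3, an alternative added after seeing the data, and 1 when the fit was limited to the groups compared. It was 20 after centring on the hybridisation controls, which shifted this comparison by -0.16 for every probe set. In each of these settings 0 members were called higher. The median difference of -0.39 moved as well. It was -0.20 with the actin 3′ minus 5′ difference as a covariate, with 12 calls, and -0.28 for the list chosen again without TAA10 array 3. It was -0.25 without XX329 array 3 and -0.60 without XX329 array 1.

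TaAffx.109085.1.S1_at had the smallest adjusted p of the 12. The arrays read 6.71, 6.69 and 6.61 in Extracted-tetra and 3.91, 3.51 and 3.92 in TAA10. XX329 read 3.91, 5.01 and 4.30 and XX329 mix 6.07, 6.24 and 6.06. Every XX329 array was more than 1 unit below every mix array, a difference of -1.72 (SE 0.22, 3.28-fold lower, adjusted p = 2.74e-05). This member was also lower in TD265 (4.61 ± 0.08) than in TTR13 (6.00 ± 0.55) and Blackbird (5.93 ± 0.08).

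Ta.5485.1.S1_at had XX329 arrays of 6.04, 5.73 and 6.06 against 7.70, 8.12 and 7.25 in the mix. The TAA10 arrays, at 6.32, 6.11 and 6.504, were all above those of XX329, so the resynthesized hexaploid was at or under the bread wheat. The difference from the mix was -1.75 (SE 0.28, 3.35-fold lower, adjusted p = 0.000576). TQ18 was at 7.32 ± 0.13, so XX329 was below the means of both its parents.

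The probe sets TaAffx.128541.69.S1_x_at, TaAffx.128541.69.S1_at and TaAffx.128541.59.A1_at share an identifier stem and moved together. The first read 5.68, 6.27 and 4.76 in XX329 against 7.47, 7.06 and 7.63 in the mix, with no overlap (-1.81, SE 0.31, adjusted p = 0.000917). The second differed by -1.49 (SE 0.32, adjusted p = 0.00893) and the third by -0.91 (SE 0.22, adjusted p = 0.0254). Ta.9600.1.S1_x_at read 4.28, 5.74 and 3.75 in XX329 and 6.29, 5.76 and 5.58 in the mix. These arrays overlapped, and the difference was -1.29 (SE 0.31, adjusted p = 0.0234). The remaining 6, TaAffx.15880.1.S1_at, Ta.20549.1.S1_x_at, Ta.19309.1.S1_at, TaAffx.19805.1.S1_at, TaAffx.12903.1.A1_at and Ta.30253.1.A1_at, differed by -0.73 to -1.22.

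**Figure D4:**
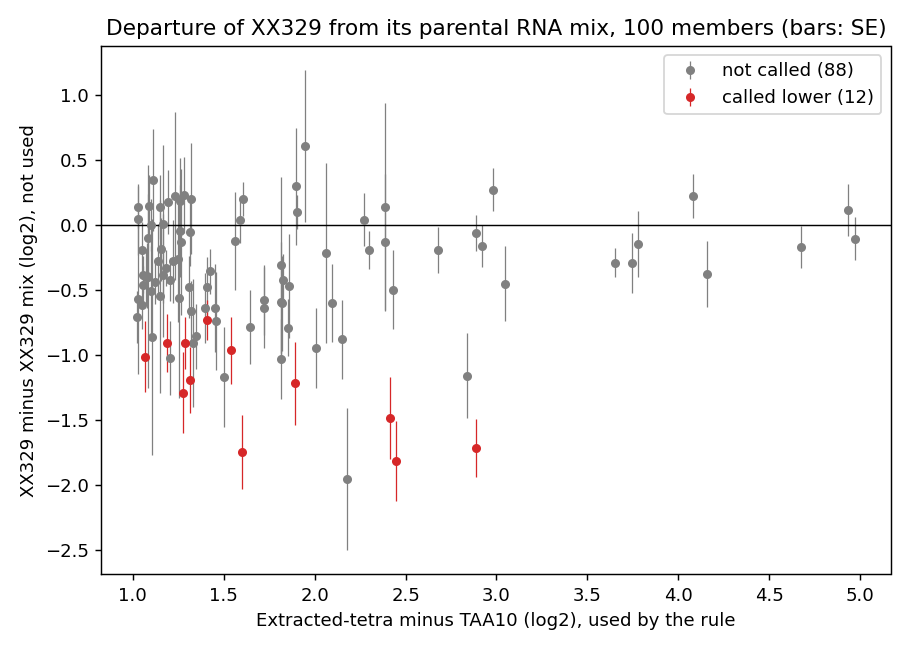
Each point is a member, with the Extracted-tetra minus TAA10 difference that chose it on the x axis and XX329 minus XX329 mix on the y axis, both in log2 units; bars are the standard error. The 12 members called lower (red) have differences of up to 2.89 on the x axis, and the members beyond 3.00 lie between -0.45 and 0.22 on the y axis.

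The XX329 arrays did not depart from the mix to the same extent. The median over members of a single array minus the mix mean was -0.11 for array 1, -0.44 for array 2 and -0.66 for array 3, and 51, 83 and 87 members were below the mix mean. The spread within the group was also wide: the median SD of the members in XX329 was 0.547, against 0.221 over the eligible probe sets and 0.186 over all. In TAA10 it was 0.309 for the members and 0.123 for the eligible probe sets. TAA10 array 3 had a member median of 6.06 against 5.31 and 5.41 on arrays 1 and 2.

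In 20 members the range over the TAA10 arrays was larger than the Extracted-tetra minus TAA10 difference itself. In 20 of these 20, TAA10 array 3 was the highest of its group, and in 20 of 20 XX329 array 1 was the highest of its group. The medians over the 20 were 4.94, 5.32 and 8.35 on the TAA10 arrays, 8.63, 6.87 and 6.56 on the XX329 arrays, 7.71, 7.69 and 7.65 in Extracted-tetra and 7.82, 7.48 and 7.35 in XX329 mix. TAA10 array 3 was therefore above every Extracted-tetra median for these members. Over all 61179 probe sets, the deviations of TAA10 array 3 and XX329 array 1 from their group means correlated at 0.27, a description across probe sets. Over the 9 pairings of a TAA10 with an XX329 array the values ran from -0.26 to 0.27, and TAA10 array 2 with XX329 array 3 gave 0.24. The deviations of a group's arrays cancel out, so the 9 values are not independent. The 0.24 therefore does not tell whether the first pair stands alone.

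Ta.10520.1.S1_at, chosen after its values were seen, shows the pattern. It read 4.24, 4.08 and 8.93 in TAA10 and 7.83, 8.31 and 8.28 in Extracted-tetra. XX329 read 9.73, 7.47 and 6.74, and the mix 8.07, 7.54 and 7.92. The third TAA10 array was above all 3 Extracted-tetra arrays, so the groups overlapped. Without TAA10 array 3, 63 of the 100 members were chosen again. What sets these arrays apart was not tested.

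Across the natural tetraploids the members had no common level. The mean of the 3 lines had a median position of 0.57 between TAA10 and Extracted-tetra, with 54 members at 0.50 or above. By line the medians were 0.54 in TTR13, 0.46 in TD265 and 0.71 in Blackbird. Among the next 100 in rank the median was 0.41 for the mean of the lines. By line it was 0.51 in TTR13, 0.28 in TD265 and 0.35 in Blackbird there. Extracted-tetra was above all 3 lines in 49 members and below all 3 in 4, and each line was above TAA10 in 57. Positions and these counts use arrays that chose the members, so they are a description. The range over the 3 line means was at least 1 in 63 members and at least 2 in 32, with a median of 1.41. No share over all probe sets was computed for these counts, so whether they are unusual cannot be read from them.

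The lines were tested against each other, since none of their arrays chose the members. TTR13 and TD265 differed in 53 members (26 higher and 27 lower in TTR13) against 22.3% of all probe sets, 34.4% of the eligible ones and 40 of the next 100 in rank. TTR13 and Blackbird differed in 47 (17 higher and 30 lower in TTR13) against 16.3%, 25% and 31. TD265 and Blackbird differed in 49 (30 higher and 19 lower in TD265) against 20.1%, 34.1% and 39. For the list chosen again without TAA10 array 3 the counts were 40, 33 and 29, nearer to those of the eligible probe sets. Centring on the hybridisation controls shifted TTR13 minus Blackbird by -0.62 and TD265 minus Blackbird by -0.71 for every probe set. TTR13 was then higher in 12 and lower in 46, with lower calls still the more frequent, while the split for TD265 turned to 21 higher and 46 lower.

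The groups that carry Extracted-tetra genomes were compared with the mean of the 3 lines, in tests whose error comes from arrays and not from the spread between lines. As the mix may share the extracts that chose the members, its higher calls may carry that choice. XX329 was called higher in 21 members and lower in 38, against 11.8% and 16.9% of all probe sets and 28.9% and 11.9% of the eligible ones. Among the next 100 in rank the counts were 25 and 25. XX329 mix was called higher in 38 and lower in 24, against 11.8% and 17.5% of all, 30.1% and 12.2% of the eligible, and 31 and 15 of the next 100. The median difference from the lines was -0.07 in XX329 and 0.39 in XX329 mix. Centring on the hybridisation controls gave 13 higher and 53 lower for XX329 and 29 higher and 35 lower for the mix. It shifted these comparisons by -0.47 and -0.31 for every probe set. For the list chosen again without TAA10 array 3, XX329 was higher in 25 and lower in 23 with a median of 0.25, so its excess of lower calls was not seen there, and the mix was higher in 42 and lower in 16 with a median of 0.63. The XX329 median was -0.26 without XX329 array 1, 0.01 without array 3 and 0.03 with TTR13 left out of the mean. With the actin covariate the mix was higher in 26 and lower in 19, with a median of 0.19.

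Among members that were lowest in the natural lines relative to Extracted-tetra, Ta.9600.1.S1_x_at read 6.17, 6.31 and 5.99 in Extracted-tetra and 3.98 ± 0.59 in TTR13, 2.79 ± 0.19 in TD265 and 2.40 ± 0.08 in Blackbird (SD, n = 3 each). The lines were also below TAA10, at 4.88 ± 0.40, and below TQ18 and 30A, at 5.71 ± 0.21 and 5.56 ± 0.18. XX329 mix exceeded the mean of the lines by 2.82 (SE 0.25, adjusted p = 2.71e-10). Ta.22468.1.S1_at had 7.80, 7.83 and 7.91 in Extracted-tetra, 6.42 ± 0.19 in TAA10, and 6.13 ± 0.42, 4.83 ± 0.02 and 6.32 ± 0.15 in TTR13, TD265 and Blackbird. Here the XX329 mix excess was 1.51 (SE 0.14, adjusted p = 5.17e-10). These were 2 of the 4 members in which all 3 natural lines had means under TAA10.

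Others of this kind differed between lines or between arrays. TaAffx.132143.1.S1_s_at was at 7.21 ± 0.52 in Blackbird and 7.22 ± 0.55 in Extracted-tetra, but at 4.26 ± 0.89 in TTR13 and 3.06 ± 0.15 in TD265 (TD265 minus Blackbird -4.15, SE 0.55, adjusted p = 6.66e-07). Its XX329 arrays, at 7.20, 5.64 and 3.59, spread over more than 3 units, and the difference from the mix was -1.95 (SE 0.55, adjusted p = 0.0617). Ta.30765.1.S1_at read 4.66, 4.97 and 8.24 in TAA10 against 7.84, 7.80 and 7.67 in Extracted-tetra. It is one of the 20 members with a high TAA10 array 3, and Blackbird spread from 3.55 to 6.72.

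The members highest in the natural lines were so mainly through TD265, the wild emmer accession. TaAffx.21659.1.A1_at read 11.58, 11.61 and 11.55 in TD265, 8.42, 8.02 and 7.85 in Blackbird, and 5.88, 5.83 and 6.43 in TTR13. The lines did not overlap, and TTR13 was lower than TD265 by a log2 difference of -5.53 (SE 0.22, adjusted p = 1.62e-18). Extracted-tetra was at 7.18 ± 0.05 and TAA10 at 6.11 ± 0.18, both far below TD265. TaAffx.128795.21.S1_s_at and TaAffx.113923.1.S1_at had the same order, with TTR13 minus TD265 of -6.03 (SE 0.36, adjusted p = 4.98e-14) and -6.29 (SE 0.30, adjusted p = 1.73e-16).

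TD265 was at least 1 unit above Extracted-tetra in 21 members, and in 13 of these TTR13 was within 0.5 of TAA10, a grouping chosen after the values were seen. Over the 13 the median level was 10.4 in TD265, 9.08 in 30A, 8.10 in Blackbird, 7.44 in TQ18, 7.18 in Extracted-tetra, 6.24 in XX329, 5.70 in TTR13 and 5.37 in TAA10. Their profiles over the 11 group means correlated with each other at 0.78 to 0.99 (median 0.94), a likeness that the choice of the 13 partly fixes. The names of 13 of 13 began with TaAffx, a prefix of 40 of the 100 members, 27.1% of the eligible probe sets and 48.5% of all. Ta.4941.1.S1_at was high in all 3 lines instead, at 8.21 ± 0.48, 9.73 ± 0.34 and 7.94 ± 0.06 in TTR13, TD265 and Blackbird against 7.31 ± 0.49 in Extracted-tetra.

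Allo-960S7, a hexaploid from another tetraploid and another Aegilops tauschii line, was read against its own mix for comparison. It was called higher in 18 members and lower in 16, against 3.3% and 5.25% of all probe sets and 6.34% and 10.1% of the eligible ones, with a median difference of -0.11. Among the next 100 in rank the counts were 13 and 10. The split became 21 higher and 35 lower with array weights and 21 and 33 in a fit limited to these groups. The list chosen again without TAA10 array 3 gave 17 and 11 with a median of 0.16. The departures of the hexaploids from their mixes differed by the test of that difference in 19 members. XX329 had the lower departure in 17 of them and the higher in 2, against 1.7% and 2.32% of all probe sets and 2.68% and 4.29% of the eligible ones. In the next 100 in rank the counts were 8 and 4. The limit on XX329 mix, whose RNA may come from the extracts that chose the members, holds here as well. The median over members was -0.32, and it was -0.18 without XX329 array 3. The list chosen again without TAA10 array 3 gave 12 and 2. The position of Allo-960S7 had a median of 0.97, against 0.73 in Allo-960 mix. The 12 arrays of this family are those with the lower hybridisation controls. Each departure compares groups within the family, but these positions set its arrays against those of TAA10 and Extracted-tetra, whose controls were higher.

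The largest of these differences was at Ta.23324.1.S1_at. Allo-960S7 read 9.19, 8.99 and 8.96 and Allo-960 mix 3.75, 4.02 and 4.38, a difference of 4.999 (SE 0.52, 32.0-fold, adjusted p = 8.79e-08). The arrays were far apart, and Allo-960S7 was also above Blackbird, at 3.60 ± 0.20, and 30A, at 5.30 ± 0.41. XX329 read 7.46, 6.72 and 4.65 against 6.40, 7.11 and 5.72 in its mix, which overlapped (-0.13, SE 0.52, adjusted p = 0.965).

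Ta.28255.1.A1_at, Ta.13464.1.S1_s_at and Ta.12422.3.S1_a_at also exceeded the Allo-960 mix, by 2.82 (SE 0.29, adjusted p = 7.72e-08), 2.54 (SE 0.24, adjusted p = 1.48e-08) and 2.64 (SE 0.28, adjusted p = 1.34e-07). In each, Allo-960S7 was above Blackbird and 30A, at 10.97 ± 0.49, 10.63 ± 0.63 and 9.57 ± 0.58. The first of them was chosen after its values were seen. In 17 members Allo-960S7 was at least 1 above its mix, with 2 probe sets each from Ta.22766, Ta.8032 and TaAffx.109191.

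Some members fell in both hexaploids: 4 were called lower in XX329 and in Allo-960S7, and 2 were called lower in XX329 and higher in Allo-960S7. Over all probe sets these shares were 0.276% and 0.0866%, and over the eligible ones 0.46% and 0.092%. The 4 were both TaAffx.128541.69 probe sets, Ta.5485.1.S1_at and Ta.19309.1.S1_at. The last of these read 6.20, 6.40 and 7.26 in XX329 against 7.68, 8.002 and 7.21 in its mix (-1.01, SE 0.27, adjusted p = 0.0469), and it differed by -1.95 in Allo-960S7 (SE 0.27, adjusted p = 9.6e-06). The 2 of opposite direction were Ta.9600.1.S1_x_at, at 1.18 in Allo-960S7, and TaAffx.15880.1.S1_at, at 1.00.

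**Figure D5:**
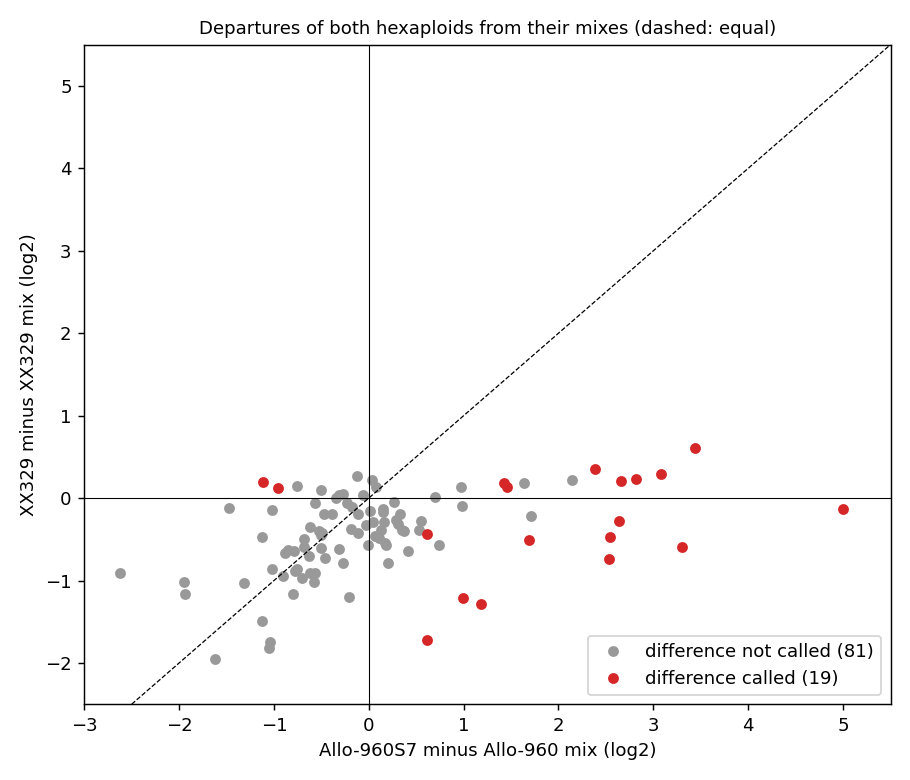
Each point is a member, with Allo-960S7 minus Allo-960 mix on the x axis and XX329 minus XX329 mix on the y axis in log2 units; the dashed line marks equal departures. The 19 members in which the departures were called different are red, and 17 of them lie below the line, toward high Allo-960S7 values.

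Gene names were assigned to 3 members by the array's annotation, as locus symbols without a product name, so no role is given. Ta.3274.1.S1_at (LOC543144) read 7.13, 7.54 and 7.32 in Extracted-tetra, 5.78, 4.64 and 5.88 in TAA10, and 8.07, 6.13 and 6.60 in XX329. The XX329 arrays lay on both sides of the mix, at 6.66, 6.77 and 6.47, and the difference was 0.30 (SE 0.45, adjusted p = 0.874). Allo-960S7 exceeded its mix by 3.08 (SE 0.45, adjusted p = 2.02e-05).

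TaAffx.78714.1.S1_at (LOC100037577) had 7.80, 8.81 and 7.46 in Extracted-tetra, 6.51, 6.25 and 6.65 in TAA10, and 5.82, 7.83 and 8.43 in XX329. The XX329 arrays reached from below every TAA10 array into the range of Extracted-tetra, and the difference from the mix was -0.12 (SE 0.38, adjusted p = 0.952). Ta.24746.1.S1_x_at (LOC543436) had 10.79, 10.72 and 10.59 in Extracted-tetra, 8.93, 9.30 and 9.92 in TAA10, and 9.28, 10.01 and 10.49 in XX329 against 10.68, 10.62 and 10.47 in the mix. That difference was -0.66 (SE 0.23, adjusted p = 0.167). Both members were higher in all 3 natural tetraploids than in Extracted-tetra, with means of 8.20 to 8.70 and 11.33 to 11.59.

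Beyond the values used to choose them, the members shared few features of annotation. Their identifiers fell into 94 stems, of which 5 held more than 1 member and together 11 members. Of the members, 16 were of the x type, whose probes match unlike transcripts, and 10 of the s type, whose probes match a group of transcripts, against 18% and 8.18% of the eligible probe sets. For these the signal of related genes cannot be told apart. The 13 lists by product words in the annotation held 0 members. Only 3 members had a gene symbol, without a product name, so these lists could not have matched any. Another 136 probe sets shared a stem with members, from 40 stems. Extracted-tetra was above TAA10 in 112 of them, by 1 or more in 10, with a median of 0.18 and a range of -3.92 to 6.44. The share above TAA10 was 58.7% of all probe sets, with a median of 0.05, and 45.1% of the eligible ones, with -0.04. The same arrays chose the members, so these values are a description. Probe sets of a stem are not independent, and how the 112 spread over the 40 stems was not counted.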

How the data were processed

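Leaf RNA was hybridised to the Affymetrix wheat array in 33 samples. The series table holds, as deposited, a log2 expression value for every probe set on each array. RMA and limma are named in the submitters' processing notes without versions or settings, and the labels add that cRNA was prepared from 6 µg of total RNA. Of 61290 probe sets, 111 controls were left out. Precision is limited by the number of arrays, which have no read depth. No array duplicated another.

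Groups came from the labels. Members followed the rule on group means, and the members and lists were chosen with earlier results of these data known. Named members are those with a gene symbol, the 10 highest differences, the 5 lowest and highest called in XX329 against its mix, the 5 lowest and 5 highest in natural tetraploids minus Extracted-tetra, 3 on each side of the end of the list and the 5 largest called differences between departures; others are said to be chosen after their values were seen. Only lower calls existed in XX329 against its mix, so 5 were named there, and the other 7 were added since they complete the 12.

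A cell-means model of the 11 groups was fitted to all 33 arrays with limma 3.58.1 in R 4.3.3 (lmFit, eBayes; 22 residual and 28.5 total degrees of freedom). P values were adjusted by Benjamini-Hochberg over all 61179 probe sets in each comparison, called at under 0.05. The error is the spread between these arrays, which may be technical. The scripts were tested on simulated data.

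Numbers pair arrays of 2 groups only if every same-numbered pair of residuals correlates above 0.1. XX329 and its mix gave -0.06 to 0.16, and none of the group pairs compared met this, so no pairing was used. Extracted-tetra and XX329 mix gave -0.152 to -0.0076, against -0.053 to 0.106 for unlike numbers. Blackbird and Allo-960 mix gave 0.047 to 0.266, against -0.219 to -0.015 for unlike numbers. Whether the mixes used the extracts of the parents' arrays was not tested. Alternatives were a 2-fold minimum, the dimmest probe sets left out, median, hybridisation control and quantile scaling, array weights, eBayes with a trend and robust option, the x type left out, a replicate block, an actin covariate, limited fits, each line or array left out, calculated mixes and other list rules. Gene symbols came from the platform annotation, and all 3 matched RefSeq (IWGSC CS RefSeq v2.1) by gene ID; no coordinates were used.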

Additional observations from a re-analysis of the deposited data

Results flagged for a closer look

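In 9 named members the departure of XX329 from its parental mix differed from that of Allo-960S7, by limma's test of the difference with adjustment over all probe sets. The difference between departures was -5.13 at Ta.23324.1.S1_at (SE 0.74, adjusted p = 4.74e-05), -3.90 at TaAffx.109191.1.S1_at (SE 0.65, adjusted p = 0.00034), -3.27 at TaAffx.109191.1.S1_x_at (SE 0.53, adjusted p = 0.000258), -3.02 at Ta.13464.1.S1_s_at (SE 0.34, adjusted p = 1.12e-06) and -2.91 at Ta.12422.3.S1_a_at (SE 0.40, adjusted p = 2.24e-05). In these 5 the Allo-960S7 departure was called and that of XX329 was not. At Ta.3274.1.S1_at (LOC543144) it was -2.78 (SE 0.64, adjusted p = 0.00885), again with a call in Allo-960S7 alone. At TaAffx.109085.1.S1_at it was -2.33 (SE 0.32, adjusted p = 1.84e-05), with the call in XX329 alone. At Ta.9600.1.S1_x_at it was -2.47 (SE 0.44, adjusted p = 0.000698), with XX329 called lower and Allo-960S7 called higher than their mixes. TaAffx.23666.1.S1_at had the opposite sign, 1.07 (SE 0.28, adjusted p = 0.0248), as Allo-960S7 was below its mix by a log2 difference of -0.95. With 3 arrays in each group, single arrays were not tested for standing apart.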

How the results depend on the processing

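The choice of members kept 80 with a minimum level of 5, 67 with 7, 62 when both diploids had to exceed TAA10 by 0.5, and 80 to 98 under other scalings. Leaving out 1 array kept 63 to 98, lowest without TAA10 array 3. The 12 members called in XX329 against its mix became 20 with hybridisation control centring, 1 in a fit limited to these groups, 5 with the list chosen without TAA10 array 3 (added after seeing the data) and 4 to 15 with 1 array left out. Fewer arrays enter the limited fit, and the cause of these changes, that of the limited fit included, was not tested. Over the 50 highest-ranked members 12% were called, and over the 200 highest 7%. The 34 calls for Allo-960S7 became 56 with array weights, 54 in a limited fit and 25 to 29 with 1 array left out. XX329 against the natural lines gave 38 in place of 59 at a 2-fold minimum and 47 to 64 with 1 array left out, and its mix 29 in place of 62 and 48 to 63. With 1 array left out, the difference between departures gave 14 to 24 calls, TTR13 against TD265 48 to 53, TTR13 against Blackbird 41 to 49 and TD265 against Blackbird 44 to 48. With the list chosen again without TAA10 array 3, TD265 against Blackbird gave 29 in place of 49. The median Allo-960S7 departure was -0.18 from a calculated mix, against -0.11.

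With the replicate number as a replicate block, 12 members were called in XX329 against its mix, 10 of them shared, 35 in Allo-960S7 and 18 for the difference between departures; the block moved no count of calls past 1.5 times.

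Of 605 values for 34 named probe sets, 567 kept direction and side of the threshold, 11 lost the call, 10 gained one and 17 turned sign, all 17 at members without a call. With hybridisation control centring XX329 minus its mix became -0.043 at TaAffx.23666.1.S1_at, -0.11 at Ta.4941.1.S1_at and -0.020 at Ta.5280.3.S1_at, with array weights 0.10 at Ta.7249.1.S1_at, and with the actin covariate 0.15 at Ta.30765.1.S1_at. With 1 array left out it ranged from -0.27 to 0.70 at Ta.3274.1.S1_at, -0.66 to 0.65 at TaAffx.78714.1.S1_at, -0.27 to 0.085 at Ta.21633.1.S1_a_at, -0.40 to 0.24 at Ta.7249.1.S1_at, -0.72 to 0.68 at Ta.23324.1.S1_at, -0.77 to 0.21 at Ta.30765.1.S1_at, -0.31 to 0.29 at Ta.4941.1.S1_at and -0.76 to 0.035 at Ta.12422.3.S1_a_at.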
